A study of Mus musculus with 15 samples.

Results

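The RNA levels of 6 genes of the insulin-like growth factor (IGF) axis were read in C2C12 mouse muscle cells with more or less of the transcription factor MLX. They are the ligand genes Igf1 and Igf2, the non-coding RNA gene H19 that lies beside Igf2, and the receptor genes Igf1r, Igf2r and Insr. They were chosen by symbol for their place in the pathway, 6 of the 23352 genes listed, and all 6 were found. All 6 also passed the filter on low values (at least 1 FPKM in at least 3 libraries), which left 11945 genes. Igf1 passed through its higher groups, since it lay under 1 FPKM in every library of the MLX shRNA and GFP control groups.

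The cells were C2C12, a line of mouse muscle precursors, labelled as myoblasts. Each group carried a lentiviral construct and had 3 libraries. The groups were MLX-WT (wild-type MLX), MLX-DN (a form labelled dominant negative), MLX shRNA (a short hairpin RNA meant to lower Mlx), NT shRNA (a non-targeting hairpin) and GFP control (a vector that gives only green fluorescent protein). All 5 groups therefore share the transduction, and untransduced cells were not analysed here. The sources used here do not give the promoter of the constructs, the number of hairpins, the time after transduction, or whether the cells of a group were a pool or a clone. Nor do they state if each library had a culture of its own, and the spread behind the p-values may therefore be technical. MLX belongs to the helix-loop-helix leucine zipper factors and binds DNA with partners such as MLXIP (MondoA) at sites built around CACGTG. The questions were how the IGF genes stood when MLX was added, when its dominant-negative form was added, and when Mlx RNA was lowered.

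IGF1 and IGF2 are secreted and act mainly through the IGF1 receptor, a tyrosine kinase related to the insulin receptor, and the signal runs through IRS proteins, phosphoinositide 3-kinase and AKT to mTOR and the FOXO factors. The IGF2 receptor, which is also the mannose 6-phosphate receptor, has no kinase and takes IGF2 to lysosomes, so it lowers the ligand. In muscle, IGF1 and IGF2 promote differentiation and growth, and IGF2 made by the cells themselves is known for this in C2C12. Igf2 and H19 are imprinted neighbours that share enhancers, with a control region bound by CTCF between them, and H19 RNA is the precursor of miR-675.

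Mlx, the targeted gene, averaged 644 ± 11.6 FPKM with MLX-WT, 394 ± 8.76 with MLX-DN, 3.21 ± 0.645 with MLX shRNA, 17.1 ± 0.778 with NT shRNA and 17.1 ± 0.516 in the GFP control (mean ± SD, n = 3 in each group here and below). FPKM are fragments scaled by transcript length and by the size of the library. Reads of the constructs may be part of the MLX-WT and MLX-DN values, since the table has a single row for Mlx, and 19.3% of the exon bases of Mlx are shared with Psmc3ip on the opposite strand. Depth, estimated from the steps between low values, was 37000000 to 82760000 reads per library, and the range was 53020000 to 77780000 for MLX-WT, 47160000 to 65810000 for MLX-DN, 37000000 to 52130000 for MLX shRNA, 39610000 to 56090000 for NT shRNA and 38480000 to 82760000 for the GFP control. Pairs of libraries within a group had r = 0.99890 to 0.99955 across genes. Of 10 myoblast markers 8 to 10 averaged at least 1 FPKM in each group. Of 23 listed markers of differentiating myotubes the 22 in the table did so in every group, and their summed FPKM ranged over 27811 to 28269 in MLX-WT libraries, 23166 to 23639 in MLX-DN, 23521 to 25342 in MLX shRNA, 16898 to 17264 in NT shRNA and 26741 to 27245 in the GFP control. By limma adjusted p, 10 of the 22 were higher and 9 lower in MLX-WT than in the GFP control (27.6% and 42.7% of all tested genes), and 7 were higher and 13 lower in MLX-DN (32.6% and 48.8%). In MLX shRNA 18 were higher and 3 lower than in NT shRNA (30.8% and 39.3%), and in NT shRNA 1 was higher and 20 lower than in the GFP control (37% and 37.1%). Osteoblast markers, mostly Bglap2, summed to 72.3 to 76.1 FPKM in MLX-WT libraries, 68.5 to 69.3 in MLX-DN, 70.6 to 76.5 in MLX shRNA, 17.5 to 19.7 in NT shRNA and 11.96 to 12.98 in the GFP control. Adipocyte, endothelial, blood and liver markers summed to at most 3.61, 0.490, 5.80 and 0.175 FPKM in any library. In bulk RNA, fewer cells of a type and less RNA per cell cannot be told apart, and this holds for every level below.

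**Figure D1:**
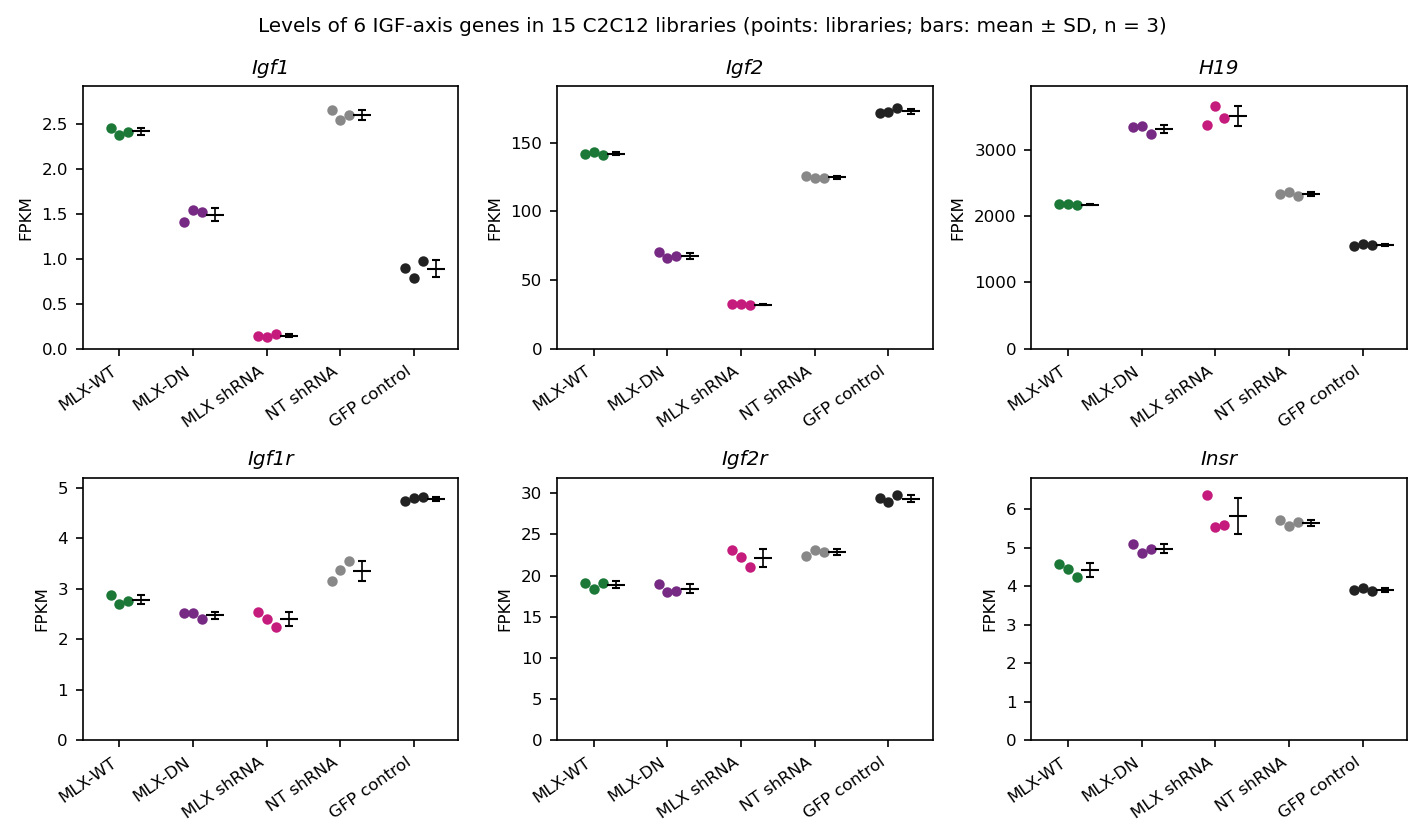
FPKM of the 6 genes (y axes, linear, from 0) in each of the 15 libraries by group (x axes); points are libraries and bars are the mean ± SD, n = 3. Igf2 is lowest with MLX shRNA (31.5 to 32.7 FPKM) and highest in the GFP control (172 to 175), whereas H19 is highest with MLX shRNA (3371 to 3662) and lowest in the GFP control (1543 to 1578).

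Igf2, which encodes a growth factor best known from fetal growth, was lowest with MLX shRNA and next lowest with MLX-DN. It had 142, 143 and 141 FPKM in the MLX-WT libraries, 70.1, 65.7 and 67.3 in the MLX-DN libraries, 32.2, 32.7 and 31.5 in the MLX shRNA libraries, 126, 124 and 124 in the NT shRNA libraries and 172, 172 and 175 in the GFP control libraries. No 2 groups overlapped, and the MLX shRNA libraries lay far below all the others.

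Igf2 fell with MLX shRNA to 32.2 ± 0.609 FPKM, against 125 ± 0.986 with NT shRNA, 3.88-fold lower. The difference was -1.89 on the log2(FPKM + 2) scale of the deposited values (SE 0.0234, limma adjusted p = 7.05e-18), number 33 by size among the 11945 genes of that comparison. With MLX-DN it fell to 67.7 ± 2.23 FPKM, against 173 ± 1.78 in the GFP control, 2.55-fold lower (log2 -1.33, SE 0.0234, limma adjusted p = 2.05e-16). With MLX-WT it was also lower than in the GFP control, by less, at 142 ± 1.16 FPKM (log2 -0.28, limma adjusted p = 3.46e-08). Its direction with MLX-WT turned with the control: set against NT shRNA, MLX-WT was higher by 0.18 (limma adjusted p = 4.44e-06), since NT shRNA itself stood 0.47 below the GFP control. MLX-DN was lower than MLX-WT by a log2 difference of -1.046 (limma adjusted p = 7.02e-15), and lower than NT shRNA by -0.86 (1.73e-13).

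The summed level of 8 fibroblast markers was likewise lowest with MLX shRNA and highest in the GFP control. It was 1041 to 1058 FPKM in MLX-WT libraries, 748 to 768 in MLX-DN, 584 to 593 in MLX shRNA, 1346 to 1421 in NT shRNA and 1439 to 1463 in the GFP control. Of the 8, Tcf21 was listed at 0 in every library, and Col3a1 and Col1a1, collagen genes that C2C12 cells express too, made up most of the sum in every group. Of the 5 that passed the filter, 4 were lower and 1 higher in each of MLX-WT, MLX-DN and MLX shRNA against its own control, where 42.7%, 48.8% and 39.3% of all tested genes were lower. Postn was the one higher with MLX shRNA, at 248 FPKM with MLX shRNA and 163 with NT shRNA. The part of these genes in the result for Igf2 was not tested. A further limit of the Igf2 values is the annotation: 62.8% of its exon bases are shared with Gm49394, a gene model on the same strand, and 1.71% with the antisense gene Igf2os (GENCODE M21, GRCm38). The deposited table has a row for the antisense gene under the name Igf2as, at 0.646 to 0.698 FPKM in the GFP control and 0.0819 to 0.133 FPKM in the libraries of the other 4 groups. The sources used here do not state if reads were counted by strand.

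Igf1, which encodes the ligand that growth hormone induces in liver and that muscle also makes, was expressed at a low level. It had 2.46, 2.39 and 2.42 FPKM in the MLX-WT libraries, 1.41, 1.54 and 1.53 in the MLX-DN libraries, 0.144, 0.127 and 0.158 in the MLX shRNA libraries, 2.66, 2.55 and 2.61 in the NT shRNA libraries and 0.905, 0.792 and 0.979 in the GFP control. The groups did not overlap, and the MLX shRNA libraries were again the lowest.

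Igf1 fell with MLX shRNA to 0.143 ± 0.0156 FPKM, against 2.61 ± 0.0577 with NT shRNA, 18.2-fold lower. The log2 difference was -1.10 (SE 0.0296, limma adjusted p = 4.31e-14), and it understates the change because 2 is added to a low FPKM. With an offset of 0.1 in place of 2 it was -3.48. The precision depends on the transcript: at the depths estimated here, the lowest Igf1 value stands for about 33 reads on the longest RefSeq transcript (7052 bases) and about 3 on the shortest (651 bases). Igf1 rose to 2.42 ± 0.0347 FPKM with MLX-WT and to 1.49 ± 0.0740 FPKM with MLX-DN, against 0.892 ± 0.0941 in the GFP control (log2 0.61 and 0.27, limma adjusted p = 5.09e-11 and 4.03e-07). Set against NT shRNA these rises were not seen. MLX-WT stood at -0.06 there (limma adjusted p = 0.0909, 95% interval -0.12 to 0.00) and MLX-DN at -0.40 (limma adjusted p = 1.66e-08), and NT shRNA itself was 2.92-fold above the GFP control.

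H19 was among the most abundant RNAs in these libraries, number 5 to 21 among the 11945 tested genes by FPKM. It had 2174, 2172 and 2159 FPKM in the MLX-WT libraries, 3337, 3350.0 and 3239 in the MLX-DN libraries, 3371, 3662 and 3469.6 in the MLX shRNA libraries, 2332, 2361 and 2297 in the NT shRNA libraries and 1543, 1578 and 1568 in the GFP control. No groups overlapped, although the lowest MLX shRNA library lay just above the highest MLX-DN library. H19 rose with each MLX construct and with MLX shRNA relative to their own controls.

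With MLX-DN, H19 averaged 3309 ± 60.6 FPKM, against 1563 ± 17.7 in the GFP control, 2.12-fold higher (log2 1.08, SE 0.0272, limma adjusted p = 1.05e-14). With MLX shRNA it averaged 3501 ± 148 FPKM, against 2329.9 ± 32.4 with NT shRNA (log2 0.59, SE 0.0272, limma adjusted p = 3.58e-11). With MLX-WT it averaged 2168 ± 8.26 FPKM, 1.39-fold above the GFP control (log2 0.47, limma adjusted p = 4.17e-10). NT shRNA was itself above the GFP control (log2 0.58, limma adjusted p = 3.10e-11), and MLX-WT was slightly below NT shRNA (-0.10, limma adjusted p = 0.00329), a call that median centring ended (-0.03, adjusted p = 0.275). Quantile normalization, which sets the values of the top genes by their rank alone, changed the sizes for H19: with MLX shRNA against NT shRNA the difference became 0.24 and with NT shRNA against the GFP control 1.04, in the same directions.

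The 2 mature arms of miR-675 come from the first exon of H19, so an H19 result bears on how much precursor was present. Their sequences, from RefSeq on GRCm38.p6 (chromosome 7, minus strand, chr7:142577078-142577099 for the 3p arm and chr7:142577112-142577133 for the 5p arm), are shown with the seed, bases 2 to 8, in capitals.
mmu-miR-675-5p: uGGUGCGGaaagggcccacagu
mmu-miR-675-3p: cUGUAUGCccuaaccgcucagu
The seeds of the arms differ. The row listed as Mir675 had 7024 ± 184 FPKM with MLX-WT, 10791 ± 428 with MLX-DN, 11228 ± 399 with MLX shRNA, 7881 ± 289 with NT shRNA and 5273 ± 108 in the GFP control. Libraries were selected for poly(A) RNA and the hairpin lies within an H19 exon, so these are reads of the H19 transcript over the hairpin and not a level of the mature miRNA. The Mir675 row stood at 3.17 to 3.46 times the FPKM of H19 in all 15 libraries. Mir483, the hairpin inside Igf2, was listed at 0 to 0.745 FPKM.

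The ratio of H19 to Igf2 combines the opposite differences of the neighbours. In FPKM it was 15.3, 15.2 and 15.3 in the MLX-WT libraries, 47.6, 50.97 and 48.1 in the MLX-DN libraries, 105, 112 and 110.0 in the MLX shRNA libraries, 18.5, 19.004 and 18.5 in the NT shRNA libraries and 8.99, 9.16 and 8.96 in the GFP control. The groups did not overlap. The mean ratio was 109 ± 3.71 with MLX shRNA, against 18.7 ± 0.271 with NT shRNA, 5.82-fold higher, and 48.9 ± 1.81 with MLX-DN, against 9.04 ± 0.106 in the GFP control, 5.41-fold higher. An exact two-sided permutation test gave p = 0.1 for each of these, the smallest that 3 libraries against 3 allow. NT shRNA and the GFP control differed 2.07-fold in the same ratio, also with the smallest possible p. A ratio within a library does not say which of its 2 genes moved.

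**Figure D2:**
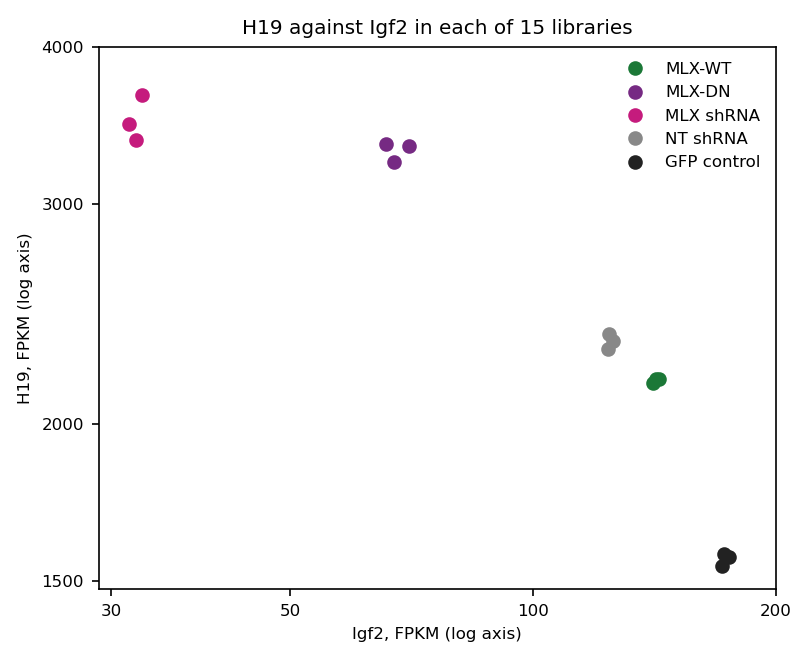
H19 (y axis, FPKM, log axis) against Igf2 (x axis, FPKM, log axis) in each of the 15 libraries, with colours for groups. The MLX shRNA libraries lie at the upper left (32.2 ± 0.609 FPKM of Igf2, 3501 ± 148 of H19) and the GFP control libraries at the lower right (173 ± 1.78 and 1563 ± 17.7).

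Igf1r encodes the kinase receptor that carries most of the signal of both ligands. It had 2.87, 2.70 and 2.76 FPKM in the MLX-WT libraries, 2.52, 2.51 and 2.40 in the MLX-DN libraries, 2.54, 2.41 and 2.25 in the MLX shRNA libraries, 3.15, 3.37 and 3.54 in the NT shRNA libraries and 4.74, 4.80 and 4.81 in the GFP control. The GFP control libraries were the highest, and MLX-DN and MLX shRNA overlapped. Igf1r fell with MLX-WT (log2 -0.51, SE 0.0329, limma adjusted p = 1.83e-09) and with MLX-DN (-0.60, SE 0.0329, 1.14e-10) relative to the GFP control, 1.72-fold and 1.93-fold lower in FPKM. With MLX shRNA it fell to 2.40 ± 0.147 FPKM, against 3.35 ± 0.193 with NT shRNA (log2 -0.28, limma adjusted p = 1.58e-06). NT shRNA itself was 1.43-fold below the GFP control (log2 -0.34, limma adjusted p = 1.56e-07). Differences of Igf1r between the MLX groups were small: MLX-DN was lower than MLX-WT by -0.09 (limma adjusted p = 0.0181), a call that was lost with quantile normalization (-0.05) and without MLX-WT replicate 1 (adjusted p = 0.0707) or MLX-DN replicate 3 (0.0664).

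Igf2r, the clearance receptor of IGF2, was the most abundant of the 3 receptor genes. It had 19.1, 18.4 and 19.1 FPKM in the MLX-WT libraries, 19.005, 18.1 and 18.2 in the MLX-DN libraries, 23.1, 22.3 and 21.0 in the MLX shRNA libraries, 22.4, 23.2 and 22.9 in the NT shRNA libraries and 29.5, 28.9 and 29.7 in the GFP control. The GFP control libraries stood above the rest, while MLX shRNA overlapped NT shRNA and MLX-DN overlapped MLX-WT. Igf2r fell with MLX-WT (log2 -0.59, SE 0.0310, limma adjusted p = 1.48e-10) and MLX-DN (-0.62, SE 0.0310, 3.71e-11) against the GFP control. With MLX shRNA it averaged 22.1 ± 1.05 FPKM, against 22.8 ± 0.367 with NT shRNA, a log2 difference of -0.04 that did not pass (limma adjusted p = 0.247, 95% interval -0.11 to 0.02). Against NT shRNA both MLX-WT and MLX-DN were lower too, by -0.25 and -0.28 (limma adjusted p = 3.73e-06 and 1.07e-06).

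The 250 bases before the start of Igf2r (RefSeq, GRCm38.p6, chr17:12769707-12769956, minus strand) are shown because they hold CACGTG, the core of the sites that MLX and its partners bind, in capitals.
Igf2r: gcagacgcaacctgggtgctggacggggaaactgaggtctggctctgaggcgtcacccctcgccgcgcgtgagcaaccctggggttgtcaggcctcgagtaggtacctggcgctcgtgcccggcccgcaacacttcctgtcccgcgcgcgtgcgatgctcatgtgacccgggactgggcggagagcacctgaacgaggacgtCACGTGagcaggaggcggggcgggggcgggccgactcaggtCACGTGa
The 2 copies begin at positions -48 and -7 from the start, and the motif reads the same on both strands. Of 32851 such windows of mouse genes, 6.02% held at least 1 copy and 0.429% at least 2. The windows of Igf1 (1), Igf1r (1) and Igf2 (4 starts) held none within 250 bases, and H19 and Insr had no window in the table. The windows were also searched for a carbohydrate response element, here 2 motifs like CACGTG at a fixed short distance. No window of Igf2r, Igf1, Igf1r or Igf2 held that element, and 0.0974% of all windows did. A match is a description of letters and not a measured binding site.

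Insr, the insulin receptor gene, differed least, by 0.40 on the log2 scale between its highest and lowest group. It had 4.57, 4.46 and 4.23 FPKM in the MLX-WT libraries, 5.09, 4.85 and 4.97 in the MLX-DN libraries, 6.37, 5.53 and 5.59 in the MLX shRNA libraries, 5.71, 5.56 and 5.66 in the NT shRNA libraries and 3.90, 3.96 and 3.86 in the GFP control. The GFP control libraries were the lowest, and MLX shRNA and NT shRNA overlapped. Insr rose with MLX-WT (log2 0.12, limma adjusted p = 0.00958) and MLX-DN (0.24, 2.14e-05) against the GFP control. Both MLX-WT and MLX-DN were below NT shRNA, by -0.25 and -0.13 (limma adjusted p = 1.95e-05 and 0.00485), the second of which median centring and quantile normalization ended (-0.04 and -0.01). MLX shRNA and NT shRNA were at 5.83 ± 0.471 and 5.64 ± 0.0735 FPKM (log2 0.03, limma adjusted p = 0.443, 95% interval -0.05 to 0.11), and this value turned to -0.02 without MLX shRNA replicate 1 and passed the test with quantile normalization (0.10, adjusted p = 0.0257).

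The balance of the kinase receptors differed between groups. The ratio of Insr to Igf1r in FPKM was 1.59 ± 0.0616 with MLX-WT, 2.01 ± 0.0736 with MLX-DN, 2.43 ± 0.115 with MLX shRNA, 1.69 ± 0.109 with NT shRNA and 0.817 ± 0.0124 in the GFP control. Igf1r exceeded Insr in the 3 GFP control libraries and in none of the other 12. The ratio of Igf2 to its clearance receptor gene Igf2r was 7.51 ± 0.215 with MLX-WT, 3.68 ± 0.0331 with MLX-DN, 1.45 ± 0.0544 with MLX shRNA, 5.46 ± 0.127 with NT shRNA and 5.89 ± 0.0718 in the GFP control. In exact two-sided permutation tests both ratios gave p = 0.1, the smallest possible, for MLX-WT against the GFP control, for MLX-DN against it and for MLX shRNA against NT shRNA.

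**Figure D3:**
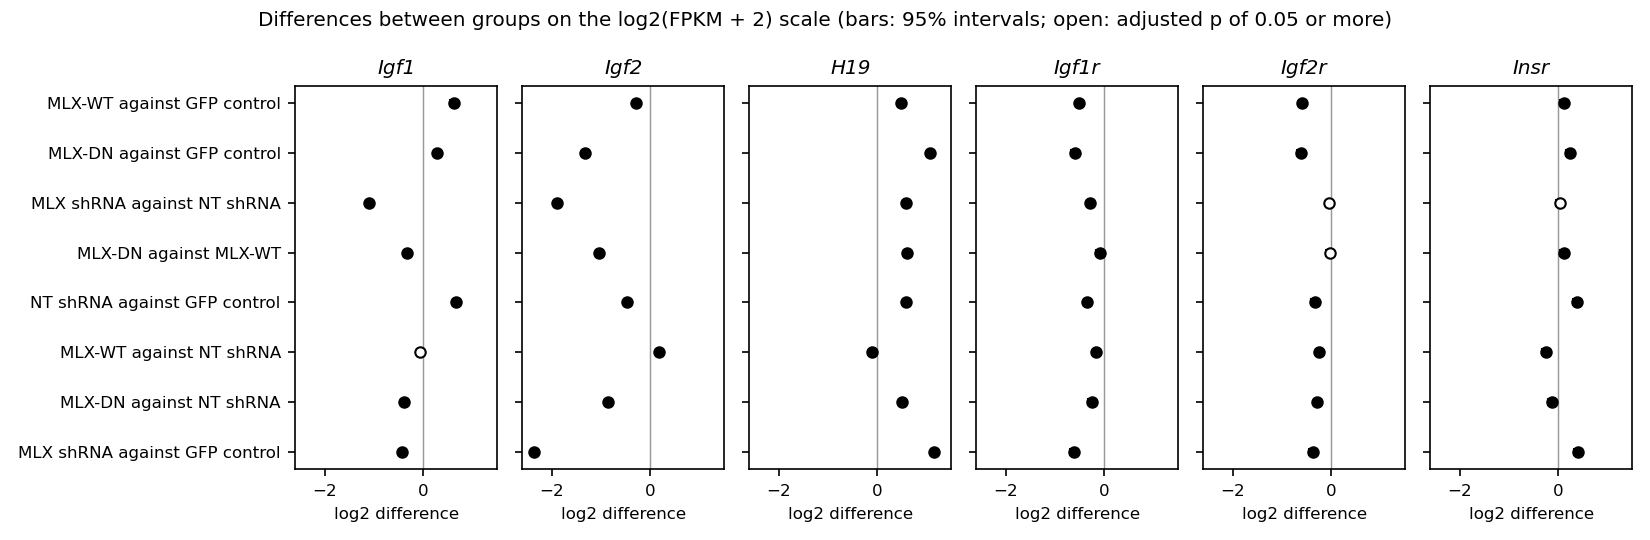
Differences between groups in the 6 genes (x axes, log2(FPKM + 2) scale; first-named group minus second) for 8 comparisons (y axis); bars are 95% intervals, mostly narrower than the points, and open points have a limma adjusted p of 0.05 or more. Igf2 reaches -1.89 with MLX shRNA against NT shRNA and -2.36 against the GFP control, and the open points are Igf2r (-0.04) and Insr (0.03) with MLX shRNA against NT shRNA, Igf2r with MLX-DN against MLX-WT (-0.03) and Igf1 with MLX-WT against NT shRNA (-0.06).

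Counted over the 6 genes, Igf1, H19 and Insr were higher and Igf2, Igf1r and Igf2r lower with MLX-WT than in the GFP control, 6 of 6 called where 70.3% of all tested genes were (27.6% higher, 42.7% lower). With MLX-DN against the same GFP control libraries, Igf1, H19 and Insr were again higher and Igf2, Igf1r and Igf2r lower, 6 of 6 where 81.4% were called (32.6% higher, 48.8% lower). Most genes were called in these comparisons, so the sizes above say more of the 6 genes than the counts do. With MLX shRNA against NT shRNA H19 was higher, Igf1, Igf2 and Igf1r were lower and Igf2r and Insr did not pass, 4 of 6 where 70.1% of tested genes were called (30.8% higher, 39.3% lower). The all-gene splits depend on scaling: among called genes the higher ones were 39.3%, 40% and 43.9% in these 3 comparisons, 54.4%, 51.8% and 55.7% with median centring and 47.9%, 50.7% and 52.6% with quantile normalization. Between the controls, NT shRNA against the GFP control, all 6 differed where 74.1% of tested genes were called (37% higher, 37.1% lower).

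In the remaining comparisons the members stood as follows. With MLX-DN against MLX-WT 2 were higher and 3 lower, where 72.1% of tested genes were called (33.2% higher, 38.9% lower). With MLX-WT against NT shRNA 1 was higher and 4 lower, where 69.9% were called (25.7% higher, 44.3% lower). With MLX-DN against NT shRNA 1 was higher and 5 lower, where 69.7% were called (21% higher, 48.7% lower). These splits depend on scaling too. Among called genes the higher ones were 30.1% for MLX-DN against NT shRNA, 52.7% with median centring and 47.3% with quantile normalization, and 36.7% for MLX-WT against NT shRNA, 53.7% with median centring and 44.8% with quantile normalization. With MLX shRNA against the GFP control 2 were higher and 4 lower, where 80% were called (37.3% higher, 42.8% lower). MLX shRNA was also set against the other MLX groups, comparisons added later to complete the order of the groups. Against MLX-DN 3 members were higher and 2 lower, where 71.2% were called (44.1% higher, 27.1% lower), and against MLX-WT 3 were higher and 3 lower, where 73.7% were called (40.8% higher, 32.9% lower).

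The libraries of 2 groups did not overlap for 6 of 6 members with MLX-WT against the GFP control (76.4% of tested genes), 6 with MLX-DN against the GFP control (83.6%), 4 with MLX shRNA against NT shRNA (69.4%), 5 with MLX-DN against MLX-WT (76.6%) and 6 with NT shRNA against the GFP control (77.2%). They did not overlap for 6 members with MLX-WT against NT shRNA (73.8%), 6 with MLX-DN against NT shRNA (73%), 6 with MLX shRNA against the GFP control (79.8%), 5 with MLX shRNA against MLX-DN (71.8%) and 6 with MLX shRNA against MLX-WT (73.9%). Separation of 3 libraries from 3 was thus the rule among all genes, and the members' counts stood near it. In the order of group means, neighbours that did not differ by limma were MLX-WT and NT shRNA for Igf1, MLX-DN and MLX shRNA for Igf1r (-0.03, adjusted p = 0.501), MLX shRNA and NT shRNA for Igf2r and Insr, and MLX-DN and MLX-WT for Igf2r (-0.03, adjusted p = 0.333). For H19, MLX shRNA was above MLX-DN by 0.08 (limma adjusted p = 0.0151), a call lost with median centring (0.04), with quantile normalization (0.10), without a filter on low values, with only those 6 libraries in the fit, and without MLX-DN replicate 3 or MLX shRNA replicate 2 (adjusted p = 0.0592 to 0.164 over these).

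MLX-DN and MLX shRNA are both meant to lower MLX activity, so their effects, each against its own control, were tested against each other, with no library shared. The MLX-DN effect minus the MLX shRNA effect was 1.38 for Igf1 (SE 0.0419, limma adjusted p = 2.15e-13), where MLX-DN was above its control and MLX shRNA below its own. For Igf2, which fell in both, it was 0.56 (SE 0.0331, limma adjusted p = 5.33e-10), the fall with MLX shRNA being the larger. For H19, which rose in both, it was 0.49 (SE 0.0385, limma adjusted p = 1.43e-08), the rise with MLX-DN being the larger. The receptor genes Igf1r, Igf2r and Insr differed by -0.32, -0.58 and 0.21 (limma adjusted p = 1.67e-05, 1.05e-08 and 0.00225). Each of these values also holds the gap between the controls, given below. Of the 6, 4 were higher and 2 lower, where 74.8% of tested genes were called (32% higher, 42.8% lower). The MLX-WT effect minus the MLX shRNA effect was called in 5 of 6, 2 higher and 3 lower, where 65.4% were called (29.5% higher, 35.9% lower). Igf1 and Igf2 were the 2 higher ones (1.72 and 1.61).

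The 5 genes whose group means ran most like those of a member were found for the 3 members that spanned at least 1 log2 unit, by the root mean square (RMS) difference of the 5 group means on the log2 scale after each gene's own mean was removed. Predicted genes and microRNA rows were left out of this ranking, so Mir675, which lies within an H19 exon, could not be listed. For Igf2 they were Col1a2, a chain of type I collagen (RMS 0.19), Mrc2, an endocytic receptor that takes up collagen (0.20), Mgp, matrix Gla protein (0.22), Vcan, the proteoglycan versican (0.25), and Col6a1, a chain of type VI collagen (0.25). Col1a2 averaged 358, 202, 119, 314 and 527 FPKM in the MLX-WT, MLX-DN, MLX shRNA, NT shRNA and GFP control groups. For H19 they were Tmed5, a protein of early secretory transport (0.03), Fggy, a carbohydrate kinase (0.06), Ephx2, soluble epoxide hydrolase (0.07), Cib2, a calcium and integrin binding protein (0.07), and Aplp1, an amyloid precursor-like protein (0.08). For Igf1 they were Emilin2, an elastin microfibril protein (0.09), Itih2, an inter-alpha-trypsin inhibitor heavy chain (0.11), Ampd3, an AMP deaminase (0.12), Vdr, the vitamin D receptor (0.14), and Frmd4b (0.16). Likeness here is over 5 groups in 15 libraries and is a description.

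**Figure D4:**
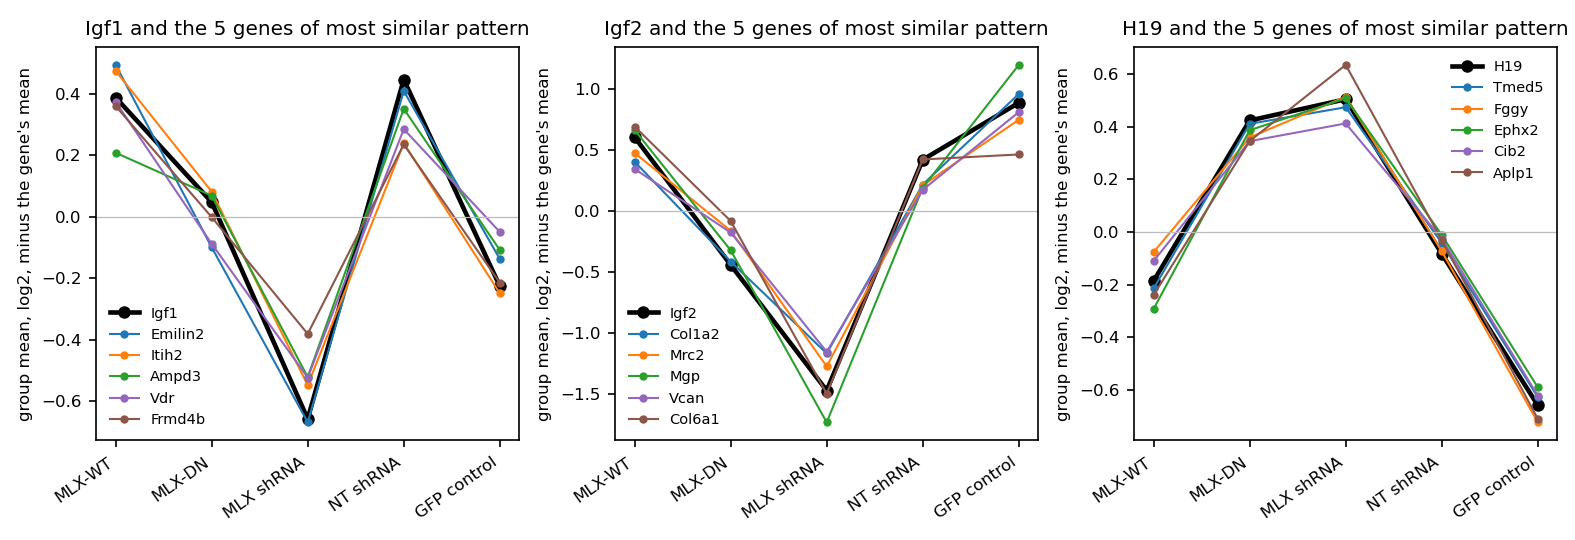
Group means of Igf1, Igf2 and H19 (black) and of the 5 genes of most similar pattern to each (colours), on the log2(FPKM + 2) scale after subtraction of each gene's mean over the 5 groups (y axis), by group (x axis). Predicted genes and microRNA rows were left out. Tmed5 follows H19 most closely (RMS 0.03), and the genes nearest to Igf2 are further from it (0.19 to 0.25). The RMS is not scaled by the span of a gene, which is 2.36 log2 units for Igf2 and 1.16 for H19.

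Igf2 and H19 lie on chromosome 7 in a run of genes that RefSeq orders as Ctsd, Syt8, Tnni2, Lsp1, Tnnt3, Mrpl23, Nctc1, H19, Igf2, Ins2, Th, Ascl2, Tspan32 and Cd81, and it places R74862 (a mean of 19.6 FPKM), not among the listed neighbours, between Tspan32 and Cd81. The 12 listed neighbours were read for differences like those of the pair. Of the 10 that passed the filter, 4 were higher and 4 lower with MLX shRNA against NT shRNA, 2 and 5 with MLX-DN, and 2 and 3 with MLX-WT against the GFP control, and the medians were 0.02, -0.10 and -0.08. The shares called were 80%, 70% and 50%, beside 70.1%, 81.4% and 70.3% of all tested genes. Nctc1, the non-coding transcript next to H19 that lies at an enhancer shared with Igf2 in muscle, was at 1.04 ± 0.190 FPKM with MLX-WT, 1.054 ± 0.0659 with MLX-DN, 0.841 ± 0.158 with MLX shRNA, 0.747 ± 0.0280 with NT shRNA and 1.01 ± 0.182 in the GFP control. With MLX-WT, then MLX-DN, then MLX shRNA, each against its own control, its differences were 0.01, 0.02 and 0.05, none of which passed. Mrpl23, a mitochondrial ribosomal protein gene, stood at -0.10, -0.76 and 0.42 in these comparisons. The fast troponin genes Tnni2 (-0.06, -0.33 and 0.89) and Tnnt3 (0.23, -0.01 and 0.63) are also among the myotube markers. The other genes on the H19 side were Lsp1, named for leukocytes (-0.67, -0.36 and -0.01), the synaptotagmin gene Syt8 (0.03, 0.23 and -0.56) and the cathepsin gene Ctsd (0.10, 0.12 and 0.37). On the Igf2 side Ins2, an insulin gene, stayed at or below a mean of 1.48 FPKM and passed the filter through NT shRNA alone (-0.12, 0.05 and -0.41), Th and Ascl2 were listed at 0 in every group, and the tetraspanin genes Tspan32 (-0.39, -1.09 and -0.12) and Cd81 (-0.15, -0.19 and -0.05) followed. The lowest of the 10 was Syt8 at -0.56 with MLX shRNA, beside -1.89 for Igf2, and Tspan32 at -1.09 with MLX-DN, beside -1.33 for Igf2. With MLX-WT it was Lsp1 at -0.67, below Igf2 at -0.28. Between the controls, NT shRNA against the GFP control, 3 of the 10 were higher and 7 lower (37% and 37.1% of all tested genes). Tspan32 stood at -1.43 there. Set against NT shRNA, MLX-DN was higher for Tspan32 (0.34) and lower for Igf2 (-0.86).

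Of 7 genes for proteins that bind Igf2 or H19 RNA, 3 passed the filter. Igf2bp1, Igf2bp3, Lin28a and Lin28b stayed under the filter, with group means of at most 0.326 FPKM. Igf2bp2, an IGF2 mRNA-binding protein known to act in myoblast proliferation, averaged 4.32 ± 0.0455 FPKM with MLX-WT, 9.16 ± 0.190 with MLX-DN, 10.6 ± 0.273 with MLX shRNA, 9.25 ± 0.341 with NT shRNA and 2.34 ± 0.202 in the GFP control. Its log2 differences against the own controls were 0.54, 1.36 and 0.16 (limma adjusted p = 1.34e-09, 1.09e-14 and 0.000590), and NT shRNA alone was at 1.37. Khsrp, a decay-promoting protein that H19 is known to bind in C2C12, fell in all 3 comparisons (-0.35, -0.55 and -0.29), and Elavl1, the stabilising protein HuR, stood at 0.09, 0.13 and -0.03, the last of which did not pass.

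IGF-binding proteins, which carry the ligands and limit or extend their action, changed in both directions. Of 9 tested genes for carriers and their proteases, 5 rose and 3 fell with MLX-WT, 4 rose and 5 fell with MLX-DN and 6 rose and 3 fell with MLX shRNA, with medians of 0.09, -0.24 and 0.14. The shares called were 88.9%, 100% and 100%, beside 70.3%, 81.4% and 70.1% of all tested genes, whose medians were -0.05, -0.08 and -0.02. Igfbp2 was at 107 ± 4.02 FPKM with MLX-WT, 102 ± 6.32 with MLX-DN, 309 ± 15.99 with MLX shRNA, 156 ± 4.62 with NT shRNA and 20.3 ± 0.873 in the GFP control. NT shRNA thus exceeded the GFP control by 2.82, more than MLX-WT (2.29) or MLX-DN (2.21) did. Igfbp3 was lower with MLX-WT (-0.80) and MLX-DN (-0.67) and higher with MLX shRNA (0.14), each against its own control. With MLX shRNA Igfbp7 (-2.02) and Igfbp4 (-1.38) fell, and so did Htra1, a protease that cleaves IGF-binding proteins (-0.84), which rose with MLX-WT (1.03) and fell with MLX-DN (-0.27).

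Of 32 tested genes of IGF and insulin receptor signalling, 8 rose and 16 fell with MLX-WT, 9 rose and 18 fell with MLX-DN, and 7 rose and 16 fell with MLX shRNA, 75%, 84.4% and 71.9% called beside the 70.3%, 81.4% and 70.1% of all tested genes given above. The medians were -0.11, -0.11 and -0.08, beside -0.05, -0.08 and -0.02 over all tested genes. Foxo1, the transcription factor that AKT restrains, had 3.88 ± 0.0992 FPKM with MLX-WT, 3.88 ± 0.0389 with MLX-DN, 2.45 ± 0.138 with MLX shRNA, 5.16 ± 0.0435 with NT shRNA and 8.83 ± 0.369 in the GFP control. It fell in all 3 comparisons (-0.88, -0.88 and -0.69), and NT shRNA was also below the GFP control (-0.60). Pik3r1, a regulatory subunit of phosphoinositide 3-kinase, fell by 0.37, 0.46 and 0.65 in the same comparisons. Pik3cb, a catalytic subunit, rose with MLX-WT (0.47) and MLX-DN (0.74) and fell with MLX shRNA (-0.16). For Pik3cb NT shRNA also stood above the GFP control (0.45). Set against NT shRNA, its value was 0.02 with MLX-WT (limma adjusted p = 0.555) and 0.30 with MLX-DN. For Pik3r1 NT shRNA was below the GFP control (-0.23).

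**Figure D5:**
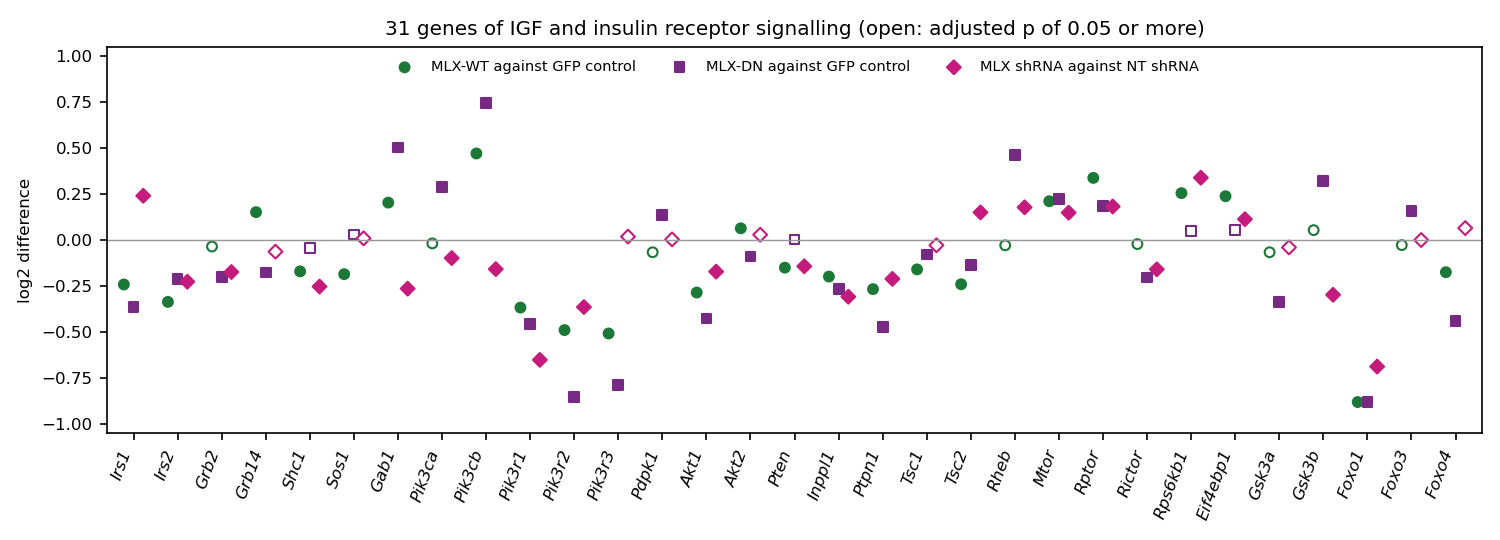
Log2 differences (y axis, log2(FPKM + 2) scale) of 31 of the 32 tested genes of IGF and insulin receptor signalling (x axis): MLX-WT and, in another colour, MLX-DN, both against the GFP control, and MLX shRNA against NT shRNA; open symbols have a limma adjusted p of 0.05 or more. Foxo1 is lower in all 3 comparisons (-0.88, -0.88 and -0.69), while Pik3cb is higher with MLX-WT and MLX-DN (0.47 and 0.74) and lower with MLX shRNA (-0.16). NT shRNA against the GFP control, not drawn, was -0.60 for Foxo1 and 0.45 for Pik3cb.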

How the data were processed

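The 15 RNA libraries, 3 for each of 5 groups, were grouped by their labels. Poly(A) RNA went into a stranded kit, per the labels' protocols. Per the submitters' processing notes, the tools included STAR, TopHat2 and CASAVA and the genome was mm9, without roles or versions. A table with log2 FPKM for 23352 genes was deposited by the authors. No library has a value under 1, which each one reaches exactly, and the deposited log2 values were therefore read as log2(FPKM + 2), and FPKM times RefSeq length, divided by its nominal total, then summed to 0.960 to 0.991.

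Differences were tested with limma (3.58.1, R 4.3.3) on the deposited values, fitting the 5 group means to all 15 libraries with a variance trend, two-sided tests, Benjamini-Hochberg adjustment over 11945 genes within each comparison and a threshold of 0.05. Steps in the low FPKM values gave the depth estimates, and 65.5% to 69.8% of these values came within 0.05 of whole reads. Each depth was picked to bring the values near whole reads, and at other depths close by 9.7% to 34.2% did so. The values are not counts, and no count model was used. At 2000 bases, 3 reads are worth 0.0181 to 0.0405 FPKM, for counting error only. The genes named are the 6 members, the neighbours and RNA-binding proteins in full, 2 to 4 of the 4 of lowest p in each other list, markers, and the 5 of most similar pattern. The 6 genes, the lists and the tests were chosen with earlier results of these data known. The alternatives tried changed the offset, the filter, the scaling, the variance trend or the libraries fitted, added a replicate block, used linear ratios, or left out each library in turn. Promoter and miRNA sequences are from RefSeq (GRCm38.p6), a later build than mm9, and coordinates are given for these sequences alone. A gene of the signalling list, included in its counts, is not reported here by itself.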

Additional observations from a re-analysis of the deposited data

Results flagged for a closer look

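Effects of the constructs on the same gene, each against its own control, differed by a limma test of the difference itself. The MLX-DN effect minus the MLX shRNA effect was 1.38 for Igf1, 0.56 for Igf2, 0.49 for H19, -0.32 for Igf1r, -0.58 for Igf2r and 0.21 for Insr on the log2(FPKM + 2) scale. The largest of these, for Igf1, joins a difference of 0.27 with MLX-DN and one of -1.10 with MLX shRNA. For the receptors, Igf1r fell with MLX-DN (-0.60) and with MLX shRNA (-0.28), while Igf2r fell with MLX-DN (-0.62) and stood at -0.04 with MLX shRNA.

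The MLX-WT effect minus the MLX shRNA effect was 1.72 for Igf1, 1.61 for Igf2, -0.11 for H19, -0.22 for Igf1r and -0.54 for Igf2r, 5 of 6 called where 65.4% of tested genes were. For Igf1 and Igf2 the limma adjusted p-values were 2.04e-14 and 2.91e-15, with SEs of 0.0419 and 0.0331. For H19 the adjusted p was 0.0166, and its sign turned with quantile normalization (0.20). For Insr the difference of 0.09 did not pass (limma adjusted p = 0.160, 95% interval -0.03 to 0.20).

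The 2 controls differed from each other in all 6 genes, and each effect above carries the level of its own control. Against the other control, the values of Igf1 were -0.06 (MLX-WT), -0.40 (MLX-DN) and -0.43 (MLX shRNA), and those of Igf2 were 0.18, -0.86 and -2.36. By construction, the MLX-DN effect minus the MLX shRNA effect is the control gap (NT shRNA against the GFP control) minus the difference of MLX shRNA against MLX-DN. The control gap was 0.67 for Igf1, -0.47 for Igf2, 0.58 for H19, -0.34 for Igf1r, -0.34 for Igf2r and 0.37 for Insr. In the same order, MLX shRNA against MLX-DN gave -0.70, -1.03, 0.08, -0.03, 0.24 and 0.17. For H19 and the receptor genes the control gap was thus the larger term. Its cause was not tested.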

How the results depend on the processing

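The offsets of 1 and 0.1, the variance model without a trend and the replicate block ended no call of the 6 genes. With the replicate block Igf2 stood at -1.89 with MLX shRNA against NT shRNA (adjusted p = 8.59e-16). Same-numbered libraries correlated at -0.0933 to 0.182 in their deviations, so the numbers were not taken as pairs. The stricter filter left out Igf1, Igf1r and Insr. Without a filter H19 lost its call with MLX shRNA against MLX-DN (0.08) and for MLX-WT minus MLX shRNA effects (-0.11). Median centring turned 2 values that had not passed, Igf2r with MLX shRNA against NT shRNA (0.012) and Igf1 with MLX-WT against NT shRNA (0.012), and ended the calls of H19 with MLX-WT against NT shRNA (-0.033), Insr with MLX-DN against NT shRNA (-0.040) and H19 with MLX shRNA against MLX-DN (0.041). Quantile normalization brought Insr with MLX shRNA against NT shRNA past the threshold (0.099), ended Igf1r with MLX-DN against MLX-WT (-0.047), Insr with MLX-DN against NT shRNA (-0.014) and H19 with MLX shRNA against MLX-DN (0.099), and turned H19 for MLX-WT minus MLX shRNA effects (0.20). Median centring moved Insr to 0.19 (MLX-WT against the GFP control) and Igf1r to -0.093 and -0.16 (MLX-WT, then MLX-DN, against NT shRNA). Quantile normalization moved called values of H19 to -0.60, 0.14 and 0.94 (MLX-WT against NT shRNA, MLX-DN against NT shRNA, and MLX-DN minus MLX shRNA effects), Insr to 0.22 and 0.39 (MLX-WT, then MLX-DN, over the GFP control), Igf1r to -0.16 (MLX-DN against NT shRNA) and Igf1 to -0.26 (MLX shRNA against the GFP control). With only the libraries compared H19 with MLX shRNA against MLX-DN lost its call (0.081). Leaving out each library gave -0.016 to 0.060 for Insr with MLX shRNA against NT shRNA, -0.11 to -0.080 for Igf1r with MLX-DN against MLX-WT, 0.048 to 0.11 for H19 with MLX shRNA against MLX-DN, and 0.059 to 0.14 for Insr in MLX-WT minus MLX shRNA effects, which passed without MLX shRNA replicate 1 (adjusted p = 0.00891). The cause was not tested.

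As log2 ratios of mean FPKM with no offset, which by construction exceed the log2(FPKM + 2) differences of low genes, 35 values moved and kept their direction. Igf1 stood at 1.44, 0.74, 1.55 and -2.64 for MLX-WT, MLX-DN, NT shRNA and MLX shRNA against the GFP control, at -0.11, -0.80 and -4.19 against NT shRNA in MLX-WT, MLX-DN and MLX shRNA order, at -0.70 for MLX-DN against MLX-WT, and at -3.38 and -4.08 for MLX shRNA against MLX-DN and MLX-WT. Igf2 stood at -1.95, -2.43, -1.07 and -2.14 for MLX shRNA against NT shRNA, the GFP control, MLX-DN and MLX-WT. Igf1r stood at -0.78, -0.95, -0.51 and -0.996 for MLX-WT, MLX-DN, NT shRNA and MLX shRNA against the GFP control, -0.27, -0.44 and -0.48 against NT shRNA in MLX-WT, MLX-DN and MLX shRNA order, -0.17 for MLX-DN against MLX-WT and -0.21 for MLX shRNA against MLX-WT. Igf2r stood at -0.64, -0.67 and -0.36 for MLX-WT, MLX-DN and NT shRNA against the GFP control. Insr stood at 0.18, 0.35, 0.53 and 0.58 for MLX-WT, MLX-DN, NT shRNA and MLX shRNA against the GFP control, -0.35 and -0.18 for MLX-WT and MLX-DN against NT shRNA, 0.17 for MLX-DN against MLX-WT, and 0.23 and 0.40 for MLX shRNA against MLX-DN and MLX-WT. Counts called in either direction, over all genes and over signalling genes, stayed within 1.5 times in every alternative. By direction, median centring gave 4131 higher and 3710 lower for MLX-DN against NT shRNA, in place of 2510 and 5821. Depth limits Igf1 most, at about 3 to 33 reads in the lowest library.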

Other observations

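Of 12 tested imprinted genes elsewhere in the genome, 4 were higher and 6 lower in the MLX-WT cells, 1 and 8 in the MLX-DN cells, and 3 and 6 in the MLX shRNA cells against their own controls, with medians of -0.19, -0.54 and -0.09. The shares called in either direction were 83.3%, 75% and 75%, near the 70.3%, 81.4% and 70.1% of all tested genes. By direction, 27.6%, 32.6% and 30.8% of all tested genes were higher and 42.7%, 48.8% and 39.3% lower. Their medians were -0.05, -0.08 and -0.02. With MLX-DN the median of the list lay below the 25th percentile of all tested genes (-0.33). The same was so with NT shRNA against the GFP control, with a median of -0.40 and a 25th percentile of -0.18. With MLX-DN against NT shRNA the median of the list was -0.05, beside -0.08 for all tested genes. Ndn, the gene of the growth suppressor necdin, averaged 0.232 ± 0.0461 FPKM with MLX-WT, 0.196 ± 0.0186 with MLX-DN, 0.0301 ± 0.0241 with MLX shRNA, 0.218 ± 0.0868 with NT shRNA and 4.13 ± 0.180 in the GFP control. Ndn passed the filter through the GFP control alone, and it is among the genes counted as lower with MLX-WT and MLX-DN. Zim1 and Peg10 were also higher in the GFP control than in every other group mean, with 5.94 ± 0.158 and 7.94 ± 0.0817 FPKM there. Dcn, the proteoglycan decorin, which is also among the fibroblast markers, fell by 2.96 with MLX shRNA, and Mest fell by 0.93.

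Among 13 tested genes for CTCF and other regulators of the H19 and Igf2 domain, 2 were higher and 9 lower in the MLX-WT cells, 2 and 8 in the MLX-DN cells, and 0 and 10 in the MLX shRNA cells, with medians of -0.17, -0.22 and -0.17. The shares called in either direction were 84.6%, 76.9% and 76.9%, beside 70.3%, 81.4% and 70.1% of all tested genes. By direction, 27.6%, 32.6% and 30.8% of all tested genes were higher and 42.7%, 48.8% and 39.3% lower. Their medians were -0.05, -0.08 and -0.02. The list was thus more to the lower side than all tested genes, whose split depends on scaling. Ctcf, named for its role after its values were seen, stood at -0.12, -0.22 and -0.16. Uhrf1 and Dnmt1, which keep DNA methylation through replication, stood at -0.85, -1.56 and -0.58, and at -0.52, -1.049 and -0.24. Both also differed between NT shRNA and the GFP control, among the 4 genes of lowest p in the list. Tead4 stood at -0.18, 0.01 and -0.28. For the 9 tested partners of the IGF2 receptor and lysosomal sorting the counts were 4 higher and 4 lower (MLX-WT), 3 and 6 (MLX-DN) and 3 and 4 (MLX shRNA). The shares called were 88.9%, 100% and 77.8%, beside the 70.3%, 81.4% and 70.1% of all tested genes. Plaur, the urokinase receptor, rose in all 3 (0.44, 0.63 and 0.87), and Tgfb1 fell in all 3 (-0.56, -0.55 and -0.42). Plaur and Tgfb1 also differed between NT shRNA and the GFP control, among the 4 of lowest p in that list. Of 11 other insulin-family genes only Ins2 passed the filter. In the MLX network 4 of 11 genes were higher and 4 lower in the MLX-WT cells, 4 and 6 in the MLX-DN cells, and 2 and 8 in the MLX shRNA cells. That is 72.7%, 90.9% and 90.9% called, again beside 70.3%, 81.4% and 70.1% of all tested genes. Txnip stood at 0.31, -3.28 and -2.62.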
